A study of Mus musculus with 2 samples.

Results

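The Hox genes of the mouse were measured in liver of embryonic day 11.5. They were taken as the protein-coding genes whose symbol is Hox, a cluster letter from a to d and a paralog number. The rule found 39 members among 43346 mouse genes, of which 21474 were protein-coding. Total RNA was sequenced from B6NCrl embryos in 2 libraries that the labels call biological replicates. The first pooled livers of 109 embryos, while the sources used here do not state how many embryos the second pooled. Males and females were mixed in each, both received spike-in RNAs, and neither carried a stated allele or treatment. The libraries form 1 group, so levels within the tissue and the spread between pools could be described and no condition could be tested.

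Hox genes encode homeodomain transcription factors that specify position along the head-to-tail axis. They lie in clusters in which a low paralog number marks genes used toward the head and a high number marks genes used toward the tail and in the limbs. In the fetal liver, Hox genes of the A and B clusters are known for their part in blood stem and progenitor cells, and Hoxa5 and Hoxb genes are also used in mesenchyme of internal organs.

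The tissue label was checked against marker genes. All 6 hepatoblast markers and all 6 erythroid markers reached 1 TPM, a level scaled to transcript length and to the library total, in both libraries. So did 8 of 8 mesenchyme and stellate, 6 of 6 endothelium and 3 of 6 somite and skeletal muscle markers. This level alone therefore does not single out liver. The list medians were 389 TPM for hepatoblast and 276 TPM for erythroid markers. They were 17.3, 16.9 and 1.06 TPM for the other 3 lists, in the order given. Heart muscle markers stood apart between the libraries: they summed to 267 TPM in replicate 1 against 116 TPM in replicate 2, with 7 of 7 higher in replicate 1. Spike-ins took 14.6% of TPM in replicate 1 and 11.1% in replicate 2. The libraries held 34344230 and 31477397 estimated counts. Values below are given per library, or as the mean ± SD (n = 2). The tissue is bulk, so fewer cells of a type and less RNA per cell cannot be told apart.

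To show the DNA at the start of genes the results turn on, promoters are printed here for 5 members. Hoxa5 and Hoxc4 were the highest genes of their clusters, Hoxa2 and Hoxd4 were the lowest genes of paralog numbers 2 and 4, and Hoxd13 had the largest ratio between the libraries among members with a mean of 10 or more counts. Each sequence runs 5′ to 3′ on the gene's own strand, from 250 bases before to 50 bases after the RefSeq start on GRCm38.p6, and CpG dinucleotides are in capitals.
Hoxa5: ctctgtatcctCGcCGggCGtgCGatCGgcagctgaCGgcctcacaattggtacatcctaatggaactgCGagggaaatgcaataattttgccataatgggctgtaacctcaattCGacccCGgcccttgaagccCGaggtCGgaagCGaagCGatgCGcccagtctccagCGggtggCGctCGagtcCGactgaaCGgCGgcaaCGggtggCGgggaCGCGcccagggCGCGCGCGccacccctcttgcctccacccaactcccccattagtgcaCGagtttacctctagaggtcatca
Hoxa2: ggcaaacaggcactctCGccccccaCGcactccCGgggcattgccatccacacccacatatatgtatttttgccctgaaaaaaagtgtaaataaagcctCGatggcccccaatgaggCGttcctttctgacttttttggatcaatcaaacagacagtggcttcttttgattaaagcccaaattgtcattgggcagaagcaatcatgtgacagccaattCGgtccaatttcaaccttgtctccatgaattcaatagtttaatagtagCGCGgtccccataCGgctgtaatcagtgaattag
Hoxc4: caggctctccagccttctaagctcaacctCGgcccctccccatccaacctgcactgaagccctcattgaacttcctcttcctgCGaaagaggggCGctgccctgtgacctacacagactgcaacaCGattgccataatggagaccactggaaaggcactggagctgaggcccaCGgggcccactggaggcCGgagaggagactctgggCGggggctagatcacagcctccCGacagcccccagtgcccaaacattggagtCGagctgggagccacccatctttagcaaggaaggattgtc
Hoxd4: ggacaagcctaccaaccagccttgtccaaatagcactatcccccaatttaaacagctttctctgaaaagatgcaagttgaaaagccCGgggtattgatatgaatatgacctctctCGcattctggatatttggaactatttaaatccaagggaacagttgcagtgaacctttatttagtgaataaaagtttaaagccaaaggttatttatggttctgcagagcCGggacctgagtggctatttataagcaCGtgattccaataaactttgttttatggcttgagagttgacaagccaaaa
Hoxd13: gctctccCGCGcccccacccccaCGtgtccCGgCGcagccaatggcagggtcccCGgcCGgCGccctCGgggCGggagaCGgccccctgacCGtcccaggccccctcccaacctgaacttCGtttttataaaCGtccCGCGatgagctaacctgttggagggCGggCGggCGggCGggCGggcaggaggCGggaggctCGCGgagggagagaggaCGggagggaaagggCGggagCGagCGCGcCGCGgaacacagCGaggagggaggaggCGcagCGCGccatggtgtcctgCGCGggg
The Hoxa5 promoter is at chr6:52204538-52204837 on the minus strand, and that of Hoxa2 at chr6:52164782-52165081 on the minus strand. The Hoxc4 promoter is at chr15:103034145-103034444, that of Hoxd4 at chr2:74721728-74722027 and that of Hoxd13 at chr2:74667975-74668274, all on the plus strand. The GENCODE span of Hoxc4 and of Hoxd4 begins upstream of this RefSeq start.

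The 5 promoters differed in their CpG content. The Hoxa5 promoter holds 29 CpG dinucleotides and the Hoxd13 promoter 37, against 9 in Hoxa2, 9 in Hoxc4 and 4 in Hoxd4. Thus Hoxd13, at a mean of 0.200 TPM, has more CpG dinucleotides in this window than Hoxa5, at 6.95 TPM. The Hoxd13 window is also richer in G and C, at 74.3% against 61.7%. By the ratio of observed to expected CpG, which allows for that content, Hoxa5 was the higher, at 1.02 against 0.904. Of the 39 members, 22 matched the RefSeq table with 24 promoters. Their median observed-over-expected CpG ratio was 0.626, against 0.384 over 32851 comparison promoters. These were all promoters of the table outside chromosome 18. The median was 0.497 over 6 promoters of detected members and 0.770 over 18 promoters of the other members.

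Motif matches were described in the same windows. The letters TGATNNAT, a core that Hox and Pbx proteins can bind together, occurred on either strand in 4 of 24 Hox promoters (16.7%). They occurred in 8.85% of the comparison promoters. The Hoxa2 promoter holds it on the reverse strand at base 140, counted from the 5′ end of the window. The letters TATAAA, the TATA box core, occurred in 4 of 24 (16.7%) and in 13.6% of the comparison promoters. Among the printed windows, Hoxd4 holds TATAAA on the reverse strand at base 241. Hoxd13 holds it on both strands, at bases 127 and 125, which overlap. The 2 motifs do not overlap each other in the 5 printed windows.

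Hox transcripts were present at low levels. Of 39 members, 15 reached 1 TPM in both libraries, where 56.6% of protein-coding genes did. Another 22 were under 1 TPM in both, and Hoxa10 and Hoxb3 reached it in replicate 1 only. The highest single value was 9.10 TPM, for Hoxb2, which ranked 8069 among protein-coding genes by mean level. The median Hox gene had 0.63 TPM in replicate 1 and 0.58 TPM in replicate 2, against 2.82 and 2.87 TPM over all protein-coding genes. All Hox genes together summed to 54.43 TPM in replicate 1 against 55.5 TPM in the other library.

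**Figure D1:**
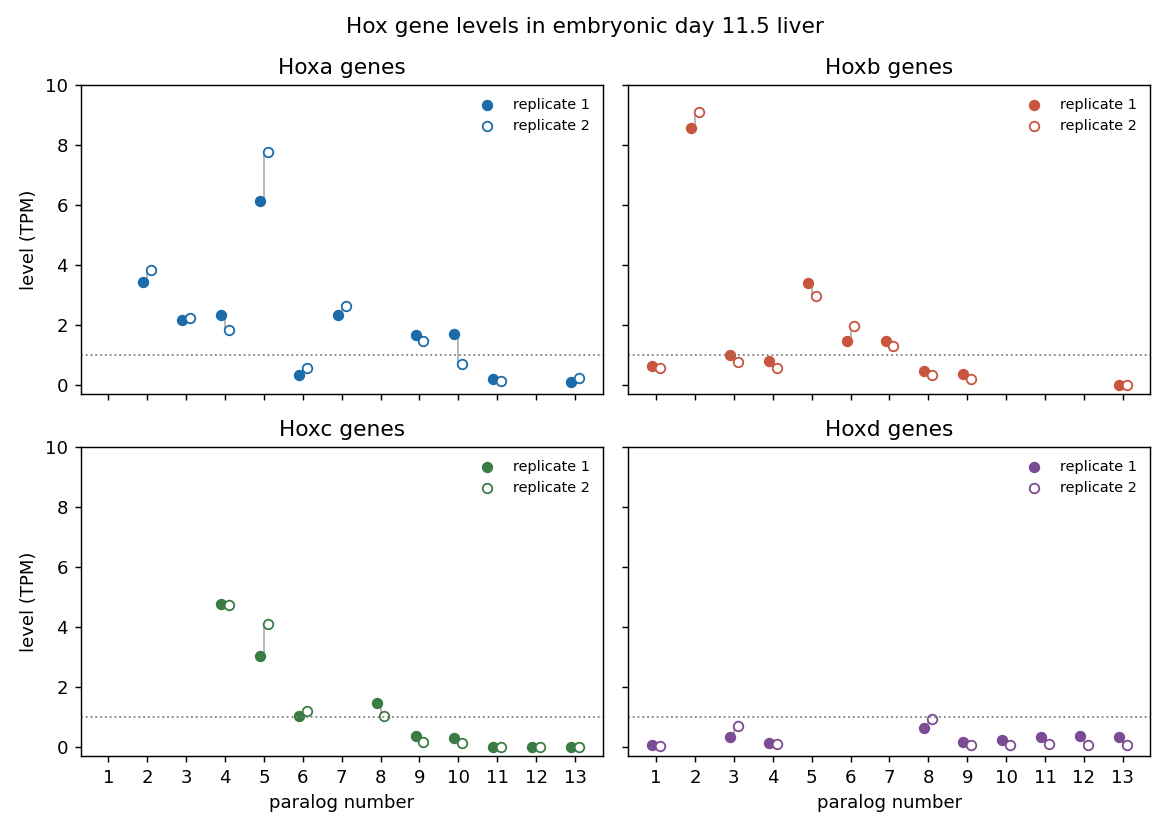
Level of 38 Hox genes (TPM, linear axis) against its paralog number, 1 panel per cluster. Filled points are replicate 1 and open points replicate 2, a grey line joins the 2 values, and the dotted line marks 1 TPM. Hoxb2 (8.56 and 9.10 TPM) and Hoxa5 (6.14 and 7.76 TPM) stand highest, and every Hoxd gene lies under the line.

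The 4 clusters contributed unequally. HoxA (chromosome 6, 11 members) summed to 22.5 TPM (replicate 1) and 24.05 TPM (replicate 2), a share of 42.3% ± 1.41 of all Hox TPM. HoxB (chromosome 11, 10 members) summed to 18.28 and 17.83 TPM, a share of 32.9% ± 1.03. HoxC (chromosome 15, 9 members) summed to 10.99 and 11.4 TPM, or 20.4% ± 0.247. HoxD (chromosome 2, 9 members) summed to 2.66 and 2.22 TPM, or 4.44% ± 0.627. The order of the clusters was the same in both libraries, and their values did not overlap. Detected members numbered 7 in HoxA, 4 in HoxB, 4 in HoxC and 0 in HoxD.

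Levels fell off toward the high paralog numbers in clusters A, B and C. The Spearman correlation of mean level with paralog number was -0.72 over 11 genes of HoxA, -0.56 over 10 of HoxB and -0.97 over 9 of HoxC, and 0.27 over 9 genes of HoxD. These are descriptions across genes that share the same libraries. The highest paralog number detected was 9 in HoxA, 7 in HoxB and 8 in HoxC. The 15 members of paralog numbers 4 to 8 carried 56.4% ± 2.00 of Hox TPM, the 8 members of numbers 1 to 3 carried 34.6% ± 1.53, and the 16 members of numbers 9 to 13 carried 8.93% ± 3.53. Per gene, numbers 1 to 3 and 4 to 8 were close. The median level for numbers 1 to 3 was 1.505 TPM in replicate 1 and 1.515 TPM in replicate 2 (1.51 ± 0.00707). For numbers 4 to 8 it was 1.48 and 1.3 TPM (1.39 ± 0.127). The median for numbers 9 to 13 was 0.188 ± 0.124 TPM.

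**Figure D2:**
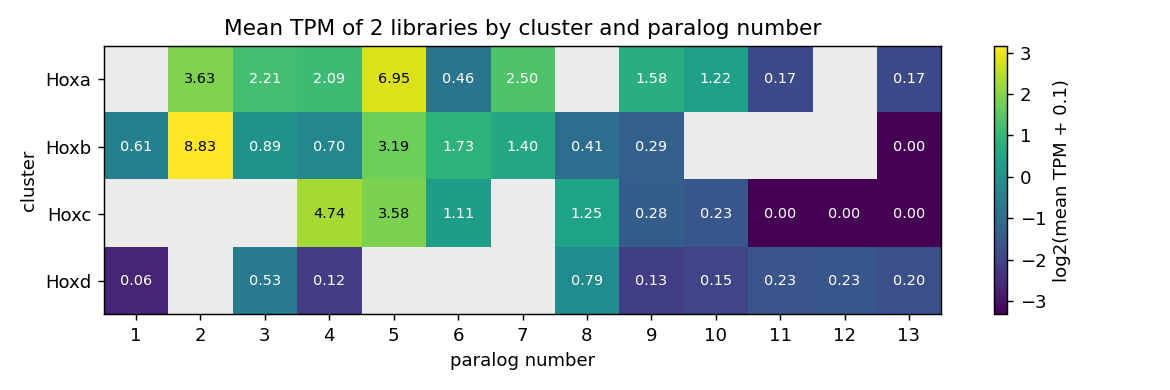
Mean TPM of the 2 libraries for 38 Hox genes, with clusters in rows and paralog numbers in columns. Colour is log2(mean TPM + 0.1), printed numbers are the mean TPM, and grey cells have no gene or none shown. The brightest cells lie at paralog numbers 1 to 8 of clusters A, B and C, led by Hoxb2 (8.83) and Hoxa5 (6.95). Not every cell there is bright: Hoxa6 (0.46) and Hoxb8 (0.41) read lower than Hoxa9 (1.58) and Hoxa10. At the right edge 4 genes read 0.

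Among paralogs 1 to 3, which pattern the hindbrain and neck region, Hoxb2 led with 8.56 TPM in replicate 1 and 9.10 TPM in replicate 2 (8.83 ± 0.382). Hoxb2 (ENSMUSG00000075588.6) lies at chr11:96350525-96354012 on GRCm38. Hoxa2, its paralog, had 3.43 and 3.84 TPM, so that Hoxb2 was 2.50 and 2.37 times higher and the deposited credibility intervals of the 2 genes did not overlap. A pair is called apart below when both libraries give the same order and those intervals do not overlap in either. Hoxa3 had 2.18 and 2.25 TPM, above Hoxb3 in both libraries, and the pair was apart. Hoxb1, known for rhombomere identity, had 0.65 and 0.58 TPM. Hoxb3 had 1.00 and 0.78 TPM, Hoxd3 0.35 and 0.70 TPM, and Hoxd1 was near its limit with 4 counts and 1 count.

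Some of these members overlap other genes. Hoxb3os, an antisense RNA, shares 27.3% of the exon bases of Hoxb2 and 52.9% of those of Hoxb3. The sources used here do not say whether counting used strand, so reads from overlapping antisense genes cannot be told apart. In all, 16 members shared exon bases with another annotated gene, among them 9 of the 15 detected.

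Paralogs 4 to 8, the genes of the neck and trunk, held 10 of the 15 detected members. Hoxa5, known for its part in lung and skeletal patterning, had 6.14 TPM in replicate 1 and 7.76 TPM in replicate 2 (6.95 ± 1.15). Hoxa5 (ENSMUSG00000038253.6) lies at chr6:52201754-52204587. Its level lay below that of Hoxb2, but the interval rule did not hold that pair apart. Hoxc4 (ENSMUSG00000075394.4, chr15:103018934-103036852) followed with 4.75 and 4.73 TPM, a spread of only 0.0141 (SD), and Hoxa5 over Hoxc4 was the 1 pair of 38 neighbours in the order of levels that was apart. Hoxc5 had 3.05 and 4.11 TPM, and Hoxb5 3.42 and 2.96 TPM. Thus the 3 genes of paralog number 5 were all detected, and Hoxa5 was above both others in both libraries.

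The other trunk genes lay lower. Hoxa7 had 2.35 and 2.65 TPM, Hoxa4 2.35 and 1.83 TPM, and Hoxb6 1.48 and 1.97 TPM. Hoxb7 had 1.49 and 1.30 TPM, Hoxc8 1.47 and 1.04 TPM, and Hoxc6 1.03 and 1.19 TPM. Their order was not resolved by the interval rule between neighbours. Hoxb4, a gene known from the expansion of blood stem cells, had 0.83 and 0.58 TPM and so was not called detected. Hoxd8 led HoxD with 0.63 and 0.94 TPM, while Hoxa6, Hoxb8 and Hoxd4 stayed under 0.6 TPM in both libraries.

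Genes next to each other could differ sharply. Along the clusters 14 of 35 adjacent pairs were apart. Hoxa5 was 17.5 times its neighbour Hoxa6 in replicate 1 and 13.6 times in replicate 2. Hoxb2 was 8.56 and 11.7 times its neighbour Hoxb3. Hoxc8 was 3.97 and 5.78 times Hoxc9, and Hoxb7 was 3.17 and 3.71 times Hoxb8, at the step where their clusters passed from detected to not detected genes. Among genes of the same paralog number, 22 of 42 pairs were apart. Hoxc4 was 36.5 and 39.4 times Hoxd4, which had only 6 and 4.66 counts.

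Paralogs 9 to 13 pattern the hindmost trunk, the limbs and the genital region. Of 16 members, Hoxa9 alone was detected, with 1.68 TPM in replicate 1 and 1.48 TPM in replicate 2 (1.58 ± 0.141). Hoxa9 (ENSMUSG00000038227.11, chr6:52223100-52231089) is known for its part in blood progenitors and in leukaemia. It was above Hoxb9, Hoxc9 and Hoxd9 in both libraries, each pair being apart. No count was seen for Hoxb13, Hoxc11, Hoxc12 and Hoxc13 in either library. For Hoxc13, a count of 0 allows levels up to 0.0492 TPM (replicate 1) and 0.0564 TPM (replicate 2), limits that cover counting error only.

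The posterior genes also differed between the pools. The summed estimated counts of the 16 genes were 318.97 in replicate 1 and 170.8 in replicate 2. Their log2 ratio, replicate 1 over replicate 2 after TMM scaling, was 0.79, with a 95% exact binomial interval of 0.52 to 1.06 that covers counting error only. The same ratio was -0.05 (-0.19 to 0.09) for paralogs 1 to 3 and 0.00 (-0.11 to 0.11) for paralogs 4 to 8. Of 12 posterior genes with any count, 11 were higher in replicate 1 and Hoxa13 was lower, with 4 and 9 counts. Over all protein-coding genes with any count, 47.8% were higher in replicate 1. Scaling on spike-in totals instead shifted the median of all genes by -0.49 (log2). On that scale 9 of 12 posterior genes were higher in replicate 1, Hoxa9, Hoxa11 and Hoxa13 were lower, and the sums were 0.30 (0.02 to 0.57) for paralogs 9 to 13, -0.54 (-0.68 to -0.40) for paralogs 1 to 3 and -0.49 (-0.60 to -0.38) for paralogs 4 to 8.

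Hoxd13 and Hoxd12 had the widest ratios among members with a mean of 10 or more counts. Hoxd13 (ENSMUSG00000001819.4, chr2:74668310-74671599), a gene of the distal limb and genital region, had 21 counts in replicate 1 and 3 in replicate 2, a log2 ratio of 2.51 (0.95 to 5.08). Hoxd12 had 24 and 5 counts, a log2 ratio of 2.04 (0.73 to 3.90). Hoxd11, which also acts in the limb and kidney, had 19.58 and 8.35 counts, and its interval of -0.04 to 2.60 held 0. All 5 genes from Hoxd9 to Hoxd13 were higher in replicate 1, and together they had 83.58 and 23.35 counts. Elsewhere, Hoxc9 had 22 and 9 counts and Hoxc10 had 15 and 6.

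Hoxa10, used in the lumbar region and in blood progenitors, was 1.70 TPM in replicate 1 and 0.73 TPM in replicate 2. It had 74 and 33 counts, a log2 ratio of 1.04 (0.44 to 1.69). Most of the difference lay on 1 transcript: Hoxa10-203, annotated as a processed transcript without a coding frame, had 51.24 estimated counts in replicate 1 and 11.41 in replicate 2. The protein-coding Hoxa10-202 had 14.48 and 20.01 counts, and Hoxa10-201 had 8.27 and 1.58.

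**Figure D3:**
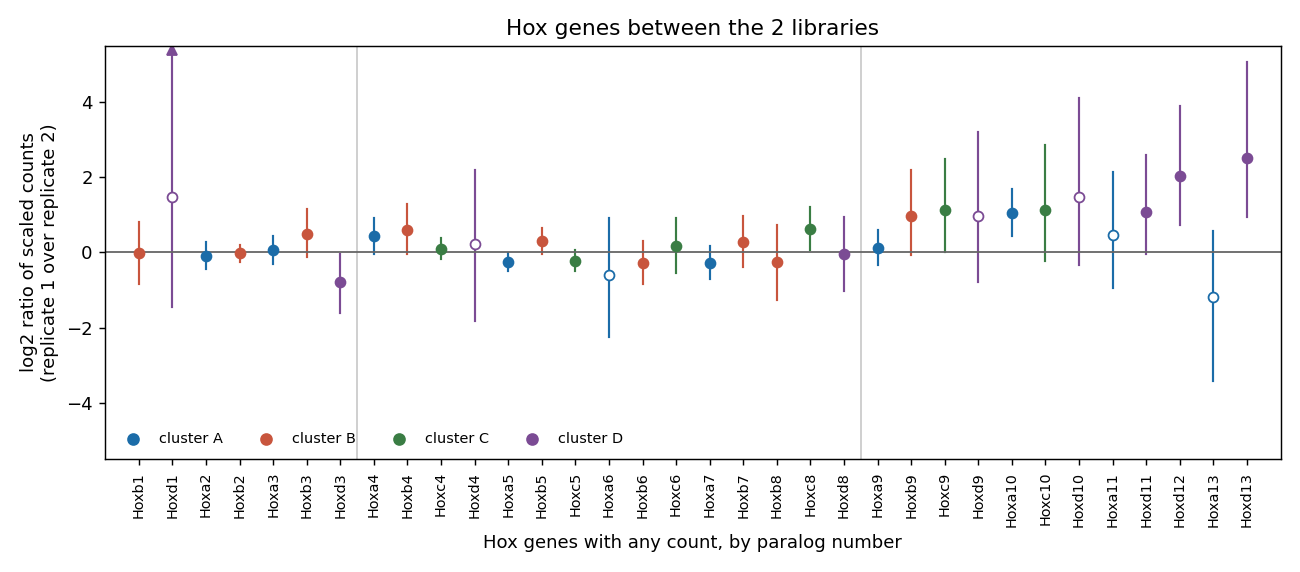
Log2 ratio of TMM-scaled estimated counts, replicate 1 over replicate 2, for 34 of the 35 Hox genes with any count, ordered by paralog number and coloured by cluster. Bars are 95% exact binomial intervals (counting error only, a triangle marks a bar that runs off the axis), open points have a mean under 10 counts, and grey lines part the paralogs 1 to 3, 4 to 8 and 9 to 13. Of 12 genes on the right, 11 lie above 0, and Hoxa13 lies below.

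At a mean of 10 or more counts, 6 members exceeded replicate 2 by 2-fold or more in replicate 1, and 0 did the reverse. They were Hoxa10, Hoxc9, Hoxc10, Hoxd11, Hoxd12 and Hoxd13. Over all genes at that minimum, 2.91% were 2-fold higher in replicate 1 and 1.46% in replicate 2. All 6 had a mean under 100 counts, as did 20 of the 28 Hox genes above the minimum. Among all genes from 10 to under 100 counts, 9.99% were 2-fold higher in replicate 1 and 5.25% in replicate 2. A low gene passes the minimum partly through the library where it is high, so the sums over all 16 posterior genes are the values to read.

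Marker lists of other tissues were compared between the same libraries, and the heart muscle list stood apart. In it, Myl7 had 118.88 TPM against 58.85 TPM, and the 7 genes had a median log2 ratio of 1.53. The summed level of 6 limb bud markers was 11.8 TPM against 10.3 TPM. Of these 6, 2 were detected. Lmx1b had 13 and 0 counts and Shox2 147 and 52, while Pitx1 had 277 and 279 and Fgf8 6 and 15. Tbx5 had 368 and 230 counts and Tbx4 52 and 42. Kidney and gonad markers summed to 3.21 and 3.23 TPM. The stomach, gut and pancreas markers summed to 23.0 and 26.6 TPM. Of 5 genes with a mean of 10 counts, 0 were higher in replicate 1 (median log2 ratio -0.73). Among them Barx1 and Sox17 were nearly even, with log2 ratios of -0.07 and -0.10. The lower genes were Nkx2-3 (49 and 85 counts), Pdx1 (24 and 37) and Nkx6-1 (9 and 19). Cdx2, under that minimum, was higher in replicate 1, with 6 and 1 counts. The part of other tissue in the posterior Hox values was not tested.

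The anterior and trunk genes were close between the pools by comparison. Hoxb2 had a log2 ratio interval of -0.24 to 0.19 and Hoxc4 one of -0.18 to 0.38. Hoxa5 was lower in replicate 1, with 282 counts against 311 and an interval of -0.49 to -0.02. Hoxd3 was lower there too, with 24.47 and 39.34 counts. Gm28230 shares 53.1% of the exon bases of Hoxd3 and had no count in either library. Hoxc8 was higher in replicate 1, with 70 and 42 counts.

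Leading transcripts were compared among the detected genes. Of 15 detected members, 12 had more than 1 annotated transcript, and in 12 of 12 the leading transcript was the same in both libraries. The same share over all genes was not computed, so this count is not read as a trait of Hox genes. A second transcript reached 20% in both libraries for 2 of them, Hoxa7 and Hoxa9. The leading Hoxa7 transcript was Hoxa7-205, annotated as subject to nonsense-mediated decay, with 56.3% of Hoxa7 TPM in replicate 1 and 62.5% in replicate 2. For Hoxa9, the coding transcript Hoxa9-201 carried 50.9% and 57.6%, and Hoxa9-202 carried 30.5% and 27.3%.

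RNAs that do not code for protein were read from the same clusters. Of 46 such genes within 5 kb of a cluster, 6 were detected and 24 had no count in either library. Hotairm1, an RNA of the HoxA cluster known from myeloid cells, had 13.63 TPM in replicate 1 and 13.77 TPM in replicate 2, above every Hox gene on the same per-length scale, from 81 and 78.14 counts. Gm27477 had 6.16 and 4.04 TPM from 7 and 4 counts, Gm15050 had 2.91 and 2.45 TPM, and Hoxaas2 had 1.34 and 2.15 TPM. Hoxaas3 had 1.46 and 1.47 TPM and Hoxb3os 1.30 and 1.15 TPM. Hoxa11os, antisense to the posterior gene Hoxa11 and sharing 35.0% of its exon bases, had 34.93 and 8.55 counts, a log2 ratio of 1.86 (0.76 to 3.09). Higher counts in replicate 1 were not limited to RNAs over posterior genes: Hoxd3os1, whose span overlaps Hoxd3, Hoxd4 and Hoxd8, had 16.53 and 1 counts, a log2 ratio of 3.39 (1.30 to 9.36). The annotated protein-coding gene 5730596B20Rik, within the span of Hoxa3, had 65.75 and 35.34 counts, a log2 ratio of 0.77 (0.19 to 1.44). The 6 microRNA genes of the clusters were listed at 0, in libraries for which the labels give a size range above 200.

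The nearest genes outside the clusters covered a wide range of levels. Mtx2, next to HoxD, was at 81.17 TPM in replicate 1 and at 87.56 TPM in replicate 2. Skap2, next to HoxA, had 27.66 and 30.37 TPM, and Calcoco1 and Smug1, on the sides of HoxC, had 11.4 and 13.15 TPM and 8.96 and 9.76 TPM. At the posterior ends, the homeobox genes Evx1 and Evx2 had 5 and 10 counts in replicate 1 and 0 in replicate 2. Skap1 had 0.35 and 0.47 TPM, and Ttll6 had no count. Of 24 flanking genes, 19 were detected.

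Transcripts of the proteins that act with Hox factors had higher median levels than the Hox genes. All 9 TALE cofactors, homeodomain proteins that bind DNA beside Hox proteins, were detected, with a median of 12.57 TPM. Meis1, a partner of Hoxa9 in blood progenitors, was the highest with 36.0 ± 2.40 TPM, followed by Pknox1 with 17.8 ± 0.559 and Pbx3 with 16.6 ± 2.43. The MLL group, which keeps Hox genes active, had 15 of 15 detected and a median of 20.52 TPM, led by Psip1 with 95.8 TPM, Ash2l with 68.1 TPM and Wdr5 with 60.7 TPM. The Polycomb group and its demethylases, the first of which hold Hox genes silent, had 14 of 14 detected and a median of 12.28 TPM, led by Rnf2 with 50.2 TPM, Ezh2 with 46.8 TPM and Eed with 39.3 TPM. These are levels in mixed tissue and carry no information on which cells hold them.

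Upstream regulators were unevenly present. Of 15 genes of Cdx and retinoic acid signalling and related control, 7 were detected. Gmnn, which restrains Hox activation and also controls DNA replication, was the highest with 168 TPM. The retinoic acid enzyme Aldh1a2 had 17.3 TPM and its receptor Rara 15.1 TPM. Cdx4 had no count, Cdx2 had 6 and 1 counts, and Cdx1 had 1 and 0. Of 12 other homeobox genes of the same ANTP class, 2 were detected, led by Meox1 with 2.55 TPM, Gbx2 with 2.00 TPM and Meox2 with 1.01 TPM, and Gsx1, Gsx2 and En2 had no count.

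**Figure D4:**
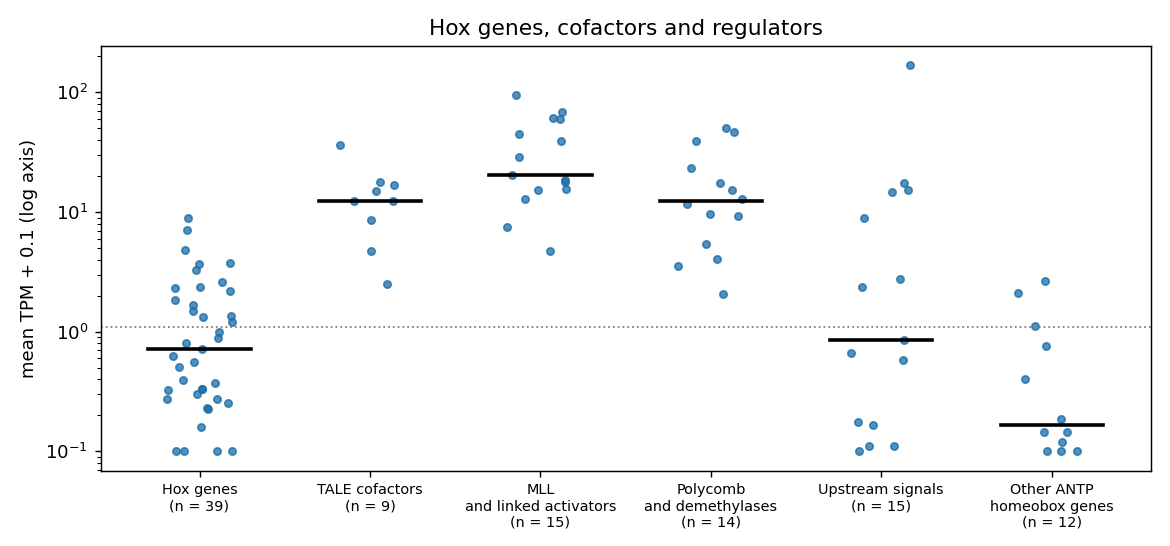
Mean TPM + 0.1 (log axis) of each gene in 6 lists, with 1 point per gene, a black bar at the list's median and a dotted line at 1 TPM. The Hox genes lie under 10 TPM, while the TALE cofactors, MLL group and Polycomb group all lie above 1 TPM with medians of 12.57, 20.52 and 12.28 TPM.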

How the data were processed

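Total RNA-seq of embryonic liver was analysed in 2 libraries, without a test because they form 1 group. Per the labels and the deposited text notes, reads were assigned on mm10 with GENCODE release M4. Aligner, quantifier, versions and strand use: not given in the sources used here. Values deposited by the authors are estimated counts (reads divided among genes by a model) and TPM values, spike-ins included. Per the file headers, FPKM values and the percent of each gene carried by each transcript were deposited too. Credibility intervals were deposited with no level given. They lie about a posterior mean, so a deposited TPM can fall outside.

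Symbols, classes and coordinates came from GENCODE M21 on GRCm38, matched for 42462 of 43346 genes. Detection was 1 TPM or more in both libraries. Count ratios used TMM (edgeR 4.0.16, counts rounded), a pseudocount of 0.5 for single genes and none for sums, and a minimum mean of 10 counts. Scripts were tested on simulated data. Members and lists were chosen with earlier results of these data known. Named genes were all members, the top 3 of each list and genes at 0. Hoxa10-203, Hoxa11os, Hoxd3os1, 5730596B20Rik and the Hoxd13 promoter were chosen after their values were seen, as were the markers named singly and the count range from 10 to under 100. Of the promoters chosen by rule, those of Hoxd8 and Hoxb8 are not printed, both genes being under 1 TPM and not apart. The rule also chose Hoxb2, the highest gene of HoxB, and Hoxb5, but neither had a RefSeq promoter to print. The values of 1 member are not reported here singly, and sums and counts include it. Protein sequences were not analysed here. SD values cover these 2 pooled libraries only.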

Additional observations from a re-analysis of the deposited data

How the results depend on the processing

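Of 94 alternatives, 73 left the value within the spread between the libraries or its counting interval and 21 moved it. These limits are wide, so values among the 73 could still differ. Detected members numbered 20 at a threshold of 0.5 TPM and 12 at an FPKM of 1. The Hoxd13 log2 ratio fell from 2.51 to 1.59 with a pseudocount of 5 counts. Hox genes 2-fold apart fell from 6 to 4 on deposited TPM. The number of detected Hox genes was 15, and it was 9 at a threshold of 2 TPM and 23 when 10 estimated counts in both libraries were asked for. The HoxA share was 42.3% and became 45.1% over detected members only. Neighbours in the order of levels that were apart numbered 1, and 2 to 3 when a single library was used. The median absolute log2 difference of adjacent genes was 0.77, and 0.82 with a pseudocount of 0.01, 0.42 with a pseudocount of 1 and 1.11 from estimated counts. Scaling on spike-in totals lowered all ratios of replicate 1 over replicate 2: the median Hox ratio changed sign from 0.15 to -0.34, that of paralogs 4 to 8 from 0.09 to -0.40, and the summed ratio of paralogs 9 to 13 from 0.79 to 0.30 (0.02 to 0.57). Without HoxD that sum was 0.56 and without Hoxa10 it was 0.72. The count of Hox genes 2-fold apart was 6, against 0 at a minimum of 100 counts, which 8 members reached, and 10 at 1.5-fold. The cause of the other changes was not tested. No paired analysis was possible because the libraries form 1 group. Leaving out a library gives no value for the agreement of main transcripts, and the planned comparison of protein sequences was not run. Members under 10 counts have wide intervals, so small differences among them were not detectable at this depth.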
